A study of Mus musculus with 2 samples.

Results

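Near-DRACH sites with a final G are positions called as m6A whose 5-mer meets every requirement of the DRACH motif except the last base. In DRACH the methylated A stands at the centre and is followed by C. The letter D allows any base but C, R allows a purine, and H allows any base but G. The sites described here carry G in place of H, which leaves 6 possible 5-mers. They are written as DNA, so that T stands for U: with a purine before GACG they are GGACG and AGACG, with a purine before AACG they are GAACG and AAACG, and with T at the start they are TGACG and TAACG. They were found by reading the GRCm38 5-mer on the strand of every listed site. Of 219409 different sites in both libraries together, 3007 were final-G sites, or 1.37% (95% Wilson interval 1.32% to 1.42%).

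GLORI (glyoxal and nitrite-mediated deamination) converts unmethylated adenosines so that they are sequenced as G, and an adenosine that carries m6A keeps its A signal. It was applied to RNA of the cerebellum and of the cerebrum of a newborn (P0) female F1r mouse. This mouse was the offspring of a C57BL/6J (C57) mother and a PWK/PhJ (PWK) father. There was 1 library per tissue and no animal of the other cross or of another age. The PWK bases were not looked up, so every 5-mer below is that of the C57 reference. The study's methods keep a site only above a minimum methylation rate and a minimum read count. The lists give positions alone, so that beyond these minimums the rate and depth behind each position are unknown. A position missing from a list may be unmethylated, methylated below the minimum rate, poorly expressed or thinly covered, and these cannot be told apart. A listed position may in turn be an unmethylated adenosine that was not converted. For its high-confidence sites the study also required overlap with peaks from an m6A antibody pull-down. That overlap was not required here, so all listed positions were used. With 1 library per tissue no replicate check exists. The intervals below treat adenosines as independent and cover counting error over adenosines only, although neighbouring adenosines share a transcript.

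Most m6A on messenger RNA is deposited by the METTL3-METTL14 methyltransferase, which favours adenosines in DRACH and works best on GGAC and on 5-mers that end in U. In messenger RNA the mark is known to be frequent around stop codons and in long internal exons and rare close to exon junctions, where the exon junction complex sits. YTH-domain proteins read it and influence the stability and translation of the transcript.

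The cerebellum library held 79355 sites and the cerebrum library 188295. Marker genes on a list of 10 hindbrain genes carried a site in 5 cases in the cerebellum library and in 2 in the cerebrum library. Atoh1 and Pax2 had none in either. Of 12 forebrain genes, 4 carried a site in the cerebellum library and 12 in the cerebrum library, where they held 261 sites against 34 in the cerebellum. These counts were not adjusted for the unequal lengths of the lists. At least 1 site fell in 8338 coding genes of the cerebellum library and 11627 of the cerebrum library.

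Pairs of neighbours show what the comparison rests on. For each 5-mer, the final-G site that was listed in both libraries and lay nearest to an unlisted copy of its own 5-mer, on an exon of a coding transcript, is printed first, and the unlisted copy second. The 5-mer is in capitals, the central A of the capitals is the adenosine in question, and 8 bases stand on each side. For TGACG and TAACG, no site listed in both libraries had an unlisted copy within 50 nt on such an exon.
Dip2c listed (GRCm38 chr13:9666056-9666076, plus strand): ttttctacGGACGgacgtgac
Dip2c unlisted (chr13:9666060-9666080, plus strand): ctacggacGGACGtgaccatt
Agfg1 listed (chr1:82895076-82895096, plus strand): accggaacGAACGtttatgtg
Agfg1 unlisted (chr1:82895072-82895092, plus strand): ctgtaccgGAACGaacgttta
Lrrc4b listed (chr7:44462172-44462192, plus strand): gaccgtggAGACGctggagac
Lrrc4b unlisted (chr7:44462181-44462201, plus strand): gacgctggAGACGcagccggg
Zfp292 listed (chr4:34807929-34807949, minus strand): aacattaaAAACGgaaaacgg
Zfp292 unlisted (chr4:34807922-34807942, minus strand): aaaacggaAAACGgcgattcc

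In Dip2c the listed adenosine lay in the last of 37 exons, in the 3′ UTR 36 nt past the stop codon, and the unlisted copy 4 nt further on. In Agfg1 the listed adenosine was also in the 3′ UTR, 28 nt past the stop codon, with the unlisted copy 4 nt before it. The Lrrc4b pair was in the CDS of exon 3 of 3, 9 nt apart, and the Zfp292 pair in the CDS of exon 8 of 8, 7 nt apart. In these pairs, adenosines a few bases apart with the same 5-mer stood on different sides of the call. Counting from the adenosine as 0, the bases at -4 and +4, taken up below over all sites, differed from pair to pair. The listed Agfg1 copy has A at -4 and T at +4 and its unlisted copy has neither. The listed Lrrc4b copy has T at +4 alone and the listed Zfp292 copy A at -4 alone, and their unlisted copies have neither. Both Dip2c copies have A at -4 without T at +4.

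The densest stretch of 50 nt held 3 final-G sites and lay in the 3′ UTR of Ube2d1, which encodes a ubiquitin-conjugating enzyme. It is shown because 3 sites of 2 of the 5-mers stand in it. The site farthest from the stop codon and the middle site were listed in both libraries, and the site nearest to it in the cerebrum library only.
Ube2d1, 275 nt past the stop codon (chr10:71255544-71255564, minus strand): aagatctgTGACGtgactgag
Ube2d1, 297 nt past the stop codon (chr10:71255522-71255542, minus strand): aagcaaccAGACGcttttctt
Ube2d1, 321 nt past the stop codon (chr10:71255498-71255518, minus strand): ctgaaacgAGACGtttttcac

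Final-G sites made up a small part of each list. The cerebellum library held 1225 of them, which is 1.54% of the list (1.46% to 1.63%), and there were 2679 cerebrum sites of this kind, or 1.42% (1.37% to 1.48%). Among the 48241 sites listed in both libraries there were 897, or 1.86% (1.74% to 1.98%). As a share of sites outside DRACH, they were 4.07% in the cerebellum (3.85% to 4.30%), 2.67% in the cerebrum (2.57% to 2.77%) and 10.8% (10.1% to 11.4%) of those in both libraries. GGACG supplied 1200 of the 3007 sites, or 39.9%. After it came GAACG with 585 sites and AGACG with 571 sites. The smallest numbers were those of AAACG with 299 sites, TGACG with 269 sites and TAACG with 83 sites.

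How often such a 5-mer is listed was asked in exons of coding transcripts of genes with at least 1 site in the library. In the cerebellum, 1132 of 82217 final-G adenosines were listed, or 1.38% (1.30% to 1.46%), against a background of 0.569% of all adenosines in these exons. In the cerebrum, 2405 of 104900 were listed, or 2.29% (2.20% to 2.39%), against a background of 0.895%. DRACH adenosines were listed at 5.55% (5.50% to 5.60%) and 7.34% (7.29% to 7.39%), which is 4.03-fold and 3.20-fold the share of final-G adenosines. All other adenosines were listed at 0.142% (0.139% to 0.144%) and 0.338% (0.335% to 0.342%), so that the final-G share was 9.71-fold and 6.78-fold higher. The order DRACH, final G, other held on 19 of 19 autosomes in each library, where the final-G share was 0.765% to 1.84% per autosome for the cerebellum list and 1.34% to 2.79% for the cerebrum list.

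Adenosines followed by CG were also separated by the bases before the A. Those without the D and R bases in front were listed at 0.113% (0.0949% to 0.134%) in the cerebellum and 0.399% (0.368% to 0.433%) in the cerebrum. The final-G share was 12.2-fold and 5.75-fold higher than this.

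Among the 6 five-mers, GGACG stood first in both libraries. It was listed at 2.57% of its 18105 adenosines in the cerebellum (2.35% to 2.81%) and 4.40% of its 23230 in the cerebrum (4.15% to 4.68%). Of the 238 five-mers outside DRACH, only GTACT and GGATT had a higher share than GGACG in the cerebellum, GGATT at 2.58% (2.41% to 2.75%) within the interval of GGACG, and in the cerebrum only GTACT did, at 5.22% (4.98% to 5.47%). GAACG followed at 1.62% and 2.59% and AGACG at 1.40% and 2.17%. TGACG was listed at 0.680% and 1.14%, AAACG at 0.647% and 1.18%, and TAACG at 0.396% and 0.627%. In the cerebellum the intervals of GAACG and AGACG, 1.43% to 1.85% and 1.23% to 1.58%, overlapped.

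With the first 4 bases held fixed, T at the end gave the highest share in all 6 sets and in both libraries. GGACT was listed at 14.0% in the cerebellum and 19.1% in the cerebrum, 5.45-fold and 4.34-fold the share of GGACG. With A at the end it was 3.35-fold and 2.72-fold above GGACG, and with C 2.43-fold and 2.02-fold. After AAAC and TAAC, however, the intervals of G and C at the end overlapped in both libraries. The difference itself was not tested. AAACG stood at 0.647% (0.525% to 0.797%) in the cerebellum and AAACC at 0.611% (0.541% to 0.690%). In the cerebrum the values were 1.18% (1.03% to 1.35%) for AAACG and 0.957% (0.878% to 1.04%) for AAACC, with intervals that overlapped slightly. AAACC belongs to DRACH and AAACG does not, and the intervals of their listed shares overlapped in both tissues.

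Depth differs between genes, and the lists do not give it. Final-G adenosines within 50 nt of another listed site of the same library, in any region, were taken as well. Of these, 676 of 8712 were listed in the cerebellum, or 7.76% (7.22% to 8.34%), and 1516 of 19483 in the cerebrum, or 7.78% (7.41% to 8.17%). The gap between the libraries seen over whole exons was thus not present in this set. Its neighbours come from each library's own list, and the lists differ in make-up. Sites outside both DRACH and final G were 28856 of 79355 in the cerebellum and 97600 of 188295 in the cerebrum. Equal shares therefore do not show that depth was matched. The gap was present in coding exons within 50 nt of a DRACH site of the same library. There 9.79% (9.05% to 10.6%) were listed in the cerebellum and 12.2% (11.6% to 12.9%) in the cerebrum. GGACG reached 19.3% (17.2% to 21.5%) and 19.8% (18.5% to 21.3%), GAACG reached 9.99% and 9.88%, and AGACG reached 9.14% and 7.96%. For TGACG the shares were 4.26% and 3.85%, for AAACG they were 3.28% and 3.44%, and for TAACG 1.70% and 1.88%. The intervals of the libraries overlapped for all 6 five-mers in that first set.

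By region, 1416 of the 3007 sites lay in the CDS, or 47.1% (45.3% to 48.9%), 1172 in the 3′ UTR, or 39.0% (37.3% to 40.7%), and 109 in the 5′ UTR, or 3.62% (3.01% to 4.35%). Exons of transcripts without a complete coding model held 145, introns 120, unannotated sequence 34 and the antisense strand of a gene 11. Introns thus held 3.99% of final-G sites (3.35% to 4.75%), against 7.15% of DRACH sites (6.99% to 7.32%) and 41.9% of the other sites outside DRACH (41.6% to 42.2%). The CDS held a larger share of final-G sites than of DRACH sites, of which 34.5% were in the CDS and 47.6% in the 3′ UTR. The 5-mers themselves are unevenly spread, with 49396 of the 82217 candidate final-G adenosines of the cerebellum in the CDS, so the shares listed within each region were compared next.

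Within each region the listed share of final-G adenosines was highest in the 3′ UTR. In the cerebellum the 5′ UTR stood at 0.400% (0.294% to 0.544%), the CDS at 1.12% (1.03% to 1.22%) and the 3′ UTR at 2.36% (2.17% to 2.57%). In the cerebrum it was 0.763% (0.626% to 0.929%), 1.99% (1.88% to 2.10%) and 3.69% (3.48% to 3.92%). DRACH adenosines gave 2.58%, 4.93% and 6.47% in the cerebellum and 3.35%, 6.64% and 8.53% in the cerebrum. The ratio of the DRACH share to the final-G share was therefore 6.46 in the 5′ UTR, 4.40 in the CDS and 2.74 in the 3′ UTR of the cerebellum, and 4.40, 3.34 and 2.31 in the cerebrum.

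**Figure D1:**
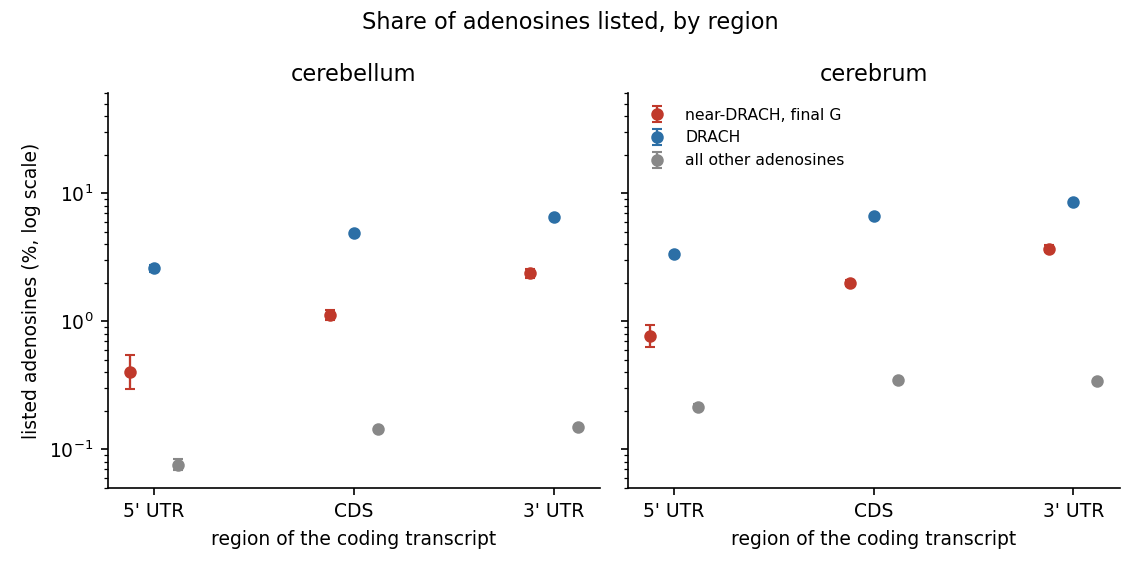
Listed share of adenosines (percent, log scale) in the 5′ UTR, CDS and 3′ UTR of coding transcripts, for final-G adenosines, DRACH adenosines and all other adenosines in each library, with 95% Wilson intervals as bars. The final-G points lie between the other two sets in every region and come closest to DRACH in the 3′ UTR, at 2.36% against 6.47% in the cerebellum.

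In the 3′ UTR, the final-G share came close to that of the DRACH 5-mers that end in C, pooled over the first 4 bases. The first 4 bases were not held fixed within a region. It was 2.36% against 2.56% for final C in the cerebellum (2.46% to 2.66%) and 3.69% against 3.72% in the cerebrum (3.62% to 3.83%), with overlapping intervals in each library. In the CDS, final C stood above final G, at 2.37% (2.28% to 2.46%) in the cerebellum and 3.37% (3.28% to 3.46%) in the cerebrum. In the 5′ UTR it was also above, at 0.950% (0.813% to 1.11%) and 1.43% (1.28% to 1.60%). Final T in the 3′ UTR reached 11.7% and 14.9%.

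Around the stop codon, final-G adenosines followed the course of DRACH adenosines at a lower level. In the cerebellum the listed share was 0.901% (0.752% to 1.08%) from 2000 to 1000 nt upstream, 1.80% (1.37% to 2.35%) in the last 100 nt of the CDS, 4.28% (3.44% to 5.30%) in the first 100 nt after the stop codon and 5.62% (4.52% to 6.98%) in the next 100 nt. It was 1.36% (1.08% to 1.71%) from 1000 to 2000 nt downstream. The cerebrum gave 1.60%, 3.91%, 6.61%, 9.12% (7.87% to 10.5%) and 2.14% in the same places. Within 200 nt of the stop codon on either side, the share was 2.15-fold that of farther adenosines in the cerebellum (1.87 to 2.48) and, for the cerebrum, 2.31-fold (2.10 to 2.53), while DRACH gave 2.40-fold (2.35 to 2.45) and 2.25-fold (2.21 to 2.28).

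**Figure D2:**
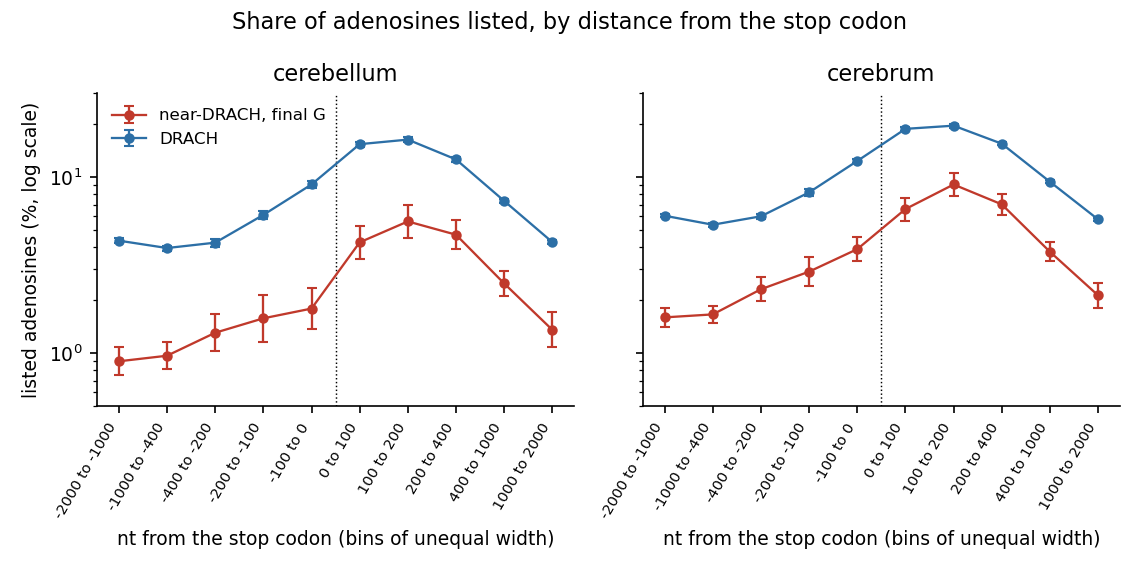
Listed share (percent, log scale) of final-G and DRACH adenosines in bins of the transcript distance from the stop codon (dotted line), negative upstream, with 95% Wilson intervals as bars. Both curves are highest from 100 to 200 nt downstream, where 5.62% of final-G adenosines were listed in the cerebellum and 9.12% in the cerebrum.

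The distance to the nearest exon junction went with wide differences in the final-G share. Outside last exons, adenosines within 50 nt of an exon junction were listed at 0.0965% (24 of 24873) in the cerebellum and 0.307% (101 of 32876) in the cerebrum. From 200 to under 300 nt the shares were 2.13% (1.66% to 2.73%) and 3.13% (2.61% to 3.76%), and at 1000 nt or more 2.87% (2.14% to 3.83%) and 4.44% (3.58% to 5.51%). Pooled over bins, at 200 nt or more the share was 15.2-fold that under 100 nt in the cerebellum (11.3 to 20.4) and, for the cerebrum, 9.34-fold (7.87 to 11.1). For DRACH the ratios were 16.9 (16.1 to 17.8) and 13.6 (13.2 to 14.1).

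**Figure D3:**
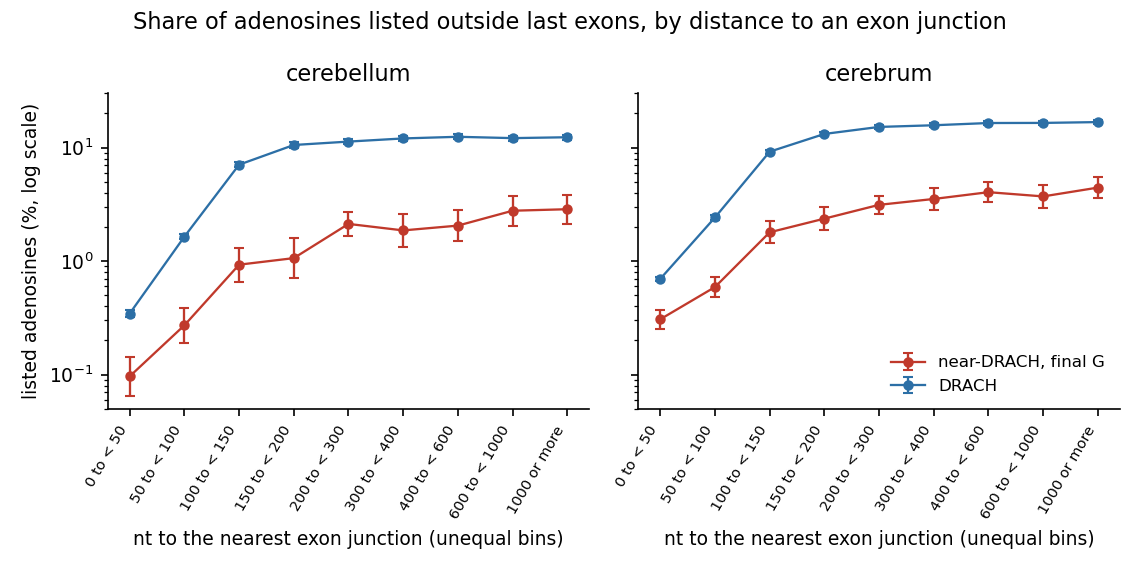
Listed share (percent, log scale) of final-G and DRACH adenosines outside last exons, in bins of the distance to the nearest exon junction, with 95% Wilson intervals as bars. The final-G share is lowest within 50 nt of a junction, at 0.0965% in the cerebellum and 0.307% in the cerebrum, and reaches 2.87% and 4.44% at 1000 nt or more.

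In the CDS, final-G adenosines of the last exon were listed at 3.21% (2.85% to 3.61%) in the cerebellum and 5.71% (5.28% to 6.16%) in the cerebrum, against 0.696% (0.620% to 0.781%) and 1.24% (1.15% to 1.34%) in other exons. These shares differed 4.61-fold (3.91 to 5.44) and 4.60-fold (4.13 to 5.13). For DRACH adenosines, the corresponding ratios were 3.46 (3.36 to 3.56) and 3.48 (3.40 to 3.55), below the intervals of the final-G ratios in both libraries. In transcripts without introns, 2.70% of final-G adenosines were listed in the cerebellum (2.02% to 3.60%) and, for the cerebrum, 4.98% (4.13% to 5.98%).

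By place in the codon, the listed share of final-G adenosines was highest at the third position. It was 0.943% at the first position, 1.11% at the second and 1.33% at the third in the cerebellum. In the cerebrum it was 1.75% (1.56% to 1.97%) at the first position and 2.31% (2.08% to 2.57%) at the third, with the second between them. The intervals of these end positions did not overlap in the cerebrum. In the cerebellum they nearly touched, with the first ending at 1.133% and the third starting at 1.134%. DRACH adenosines gave the same order, at 4.57%, 4.88% and 5.46% in the cerebellum and 6.10%, 6.64% and 7.30% in the cerebrum. Of 1416 CDS sites, 748 had the A at the second codon position, or 52.8% (50.2% to 55.4%), against 53.1% of unlisted final-G adenosines in the CDS. The third position held 26.0% (23.8% to 28.3%) against 22.4%, and the first 21.2% (19.1% to 23.4%) against 24.5%.

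The direct comparison was with unlisted adenosines of the same 5-mers on the same strand within 50 nt of a final-G site. There were 501 of them, so that 85.7% of the 3508 final-G adenosines in this comparison were listed, a share that the choice of windows around listed sites sets. The 501 differed in 5-mer from the listed sites. GGACG was 1200 of the 3007 listed but 70 of the 501 unlisted, while AAACG supplied 299 listed and 117 unlisted adenosines, and TAACG 83 and 55. G at -2 was found at 59.4% of the listed and 28.7% of the unlisted adenosines, a difference of 30.6 percentage points (Newcombe interval 26.1 to 34.8).

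Outside the 5-mer, the largest difference between -10 and +10 was at +4, the second base after it. T stood there at 52.3% of the listed and 16.8% of the unlisted adenosines, a difference of 35.5 points (31.6 to 39.0). The next was A at -4, the second base before the 5-mer, at 42.0% against 20.8%, a difference of 21.2 points (17.1 to 25.01). G at -4 was rarer at listed sites, at 17.9% against 34.5%. T was also more frequent at +3, +5 and +6, by 12.9 (8.65 to 16.7), 13.7 (9.73 to 17.3) and 10.9 points (6.72 to 14.6). DRACH sites in coding exons showed the same leading bases against unlisted DRACH adenosines, with T at +4 higher by 15.3 points and A at -4 by 10.9 points, while final-G sites in coding exons differed from unlisted ones by 30.2 and 16.4 points.

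**Figure D4:**
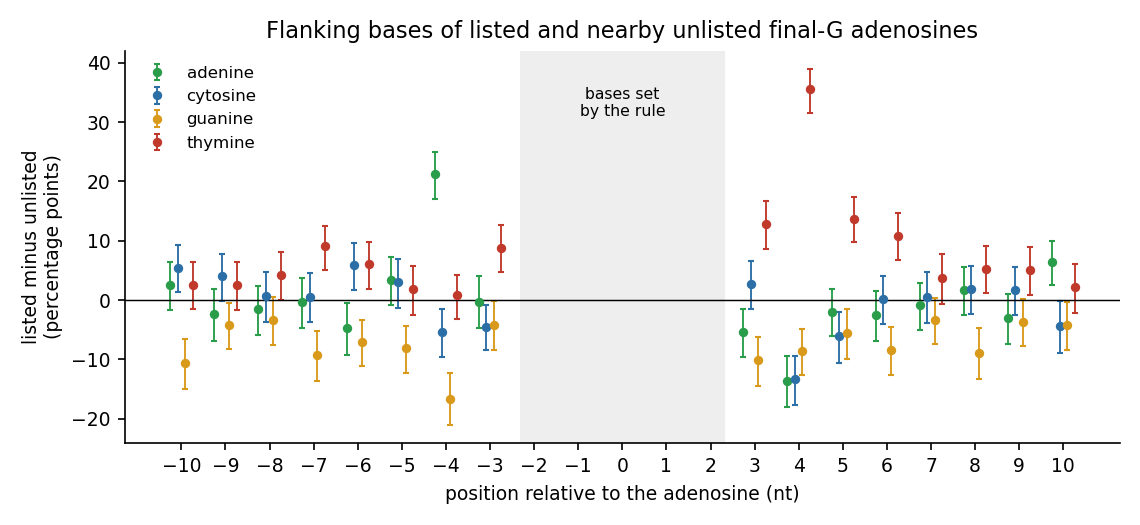
Frequency of each base at listed final-G sites (n = 3007) minus its frequency at unlisted adenosines of the same 5-mers within 50 nt (n = 501), in percentage points, at positions -10 to +10, with 95% Newcombe intervals as bars. Thymine at +4 stands out at 35.5 points and adenine at -4 at 21.2 points.

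The difference at +4 was present within each of the 6 five-mers, so it did not rest on the unequal make-up of the sets. T at +4 was more frequent at listed GGACG by 27.5 points (17.0 to 34.4) and at listed AGACG by 41.5 points (31.6 to 48.9). At GAACG the difference was 44.4 points (34.7 to 50.6), and at AAACG it was 44.4 points (34.6 to 52.4). At TAACG it was 42.6 points (26.0 to 55.7), and at TGACG it was 48.8 points (38.0 to 57.1). A at -4 was more frequent in each as well, by 11.6 points at GAACG, where the interval of -0.232 to 21.7 included 0, and by 20.98 to 31.3 points at the other 5, with intervals above 0.

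After these bases had been seen, adenosines were split by both together. Of the listed sites 21.7% had A at -4 and T at +4 at once, against 3.99% of the unlisted neighbours, a difference of 17.7 points (15.2 to 19.7). Sites with neither base were 27.4% of the listed and 66.5% of the unlisted. Sites with both bases at once are shown here, for the 2 five-mers that had no pair above and for GGACG, the most frequent one.
Disp2, 3′ UTR, last of 8 exons, 367 nt past the stop codon, listed in both libraries (chr2:118793183-118793203, plus strand): aagttcagTGACGctaaggta
Flrt2, CDS, exon 2 of 2, listed in both libraries (chr12:95780720-95780740, plus strand): tccttaaaTAACGatcagctc
Fat1, CDS, exon 19 of 27, listed in both libraries (chr8:45037279-45037299, plus strand): tccgtgacGGACGttgaggaa

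Across coding exons, final-G adenosines with both flanking bases were listed at 5.63% (5.02% to 6.31%) in the cerebellum and 8.56% (7.89% to 9.28%) in the cerebrum, above the 4.97% of DRACH adenosines without either base in the cerebrum (4.92% to 5.03%) and the 3.55% of those in the cerebellum (3.49% to 3.60%). With T at +4 alone the final-G shares were 2.78% and 4.16%, with A at -4 alone 1.33% and 2.31%, and with neither 0.525% (0.463% to 0.594%) and 1.07% (0.989% to 1.15%). Both bases against neither thus gave a ratio of 10.7 (9.06 to 12.7) in the cerebellum and 8.01 (7.16 to 8.96) in the cerebrum. For DRACH adenosines the same ratio was 3.37 (3.28 to 3.46) and 2.98 (2.92 to 3.04), below the final-G interval in each library.

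With GGAC as the first 4 bases in both sets, the contrast was also present. GGACG with both flanking bases was listed at 8.68% (73 of 841, 6.96% to 10.8%) in the cerebellum and 13.9% (150 of 1077, 11.99% to 16.1%) in the cerebrum, and with neither at 1.38% (1.18% to 1.61%) and 2.66% (2.41% to 2.93%). The ratios were 6.30 (4.82 to 8.25) and 5.24 (4.38 to 6.26). The DRACH 5-mers that begin with GGAC gave 2.44 (2.32 to 2.58) and 2.17 (2.08 to 2.25).

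Final-G sites lay close to DRACH sites about as often as DRACH sites lay close to each other. A DRACH site of the union lay within 50 nt of 48.6% of final-G sites (46.8% to 50.4%), of 45.3% of DRACH sites (44.9% to 45.6%) and of 12.2% of other sites outside DRACH. In coding exons the share was 51.4% (49.5% to 53.2%) for final-G sites and 8.81% (8.64% to 8.99%) for unlisted final-G adenosines. The unlisted copies within 50 nt of a final-G site had a DRACH site that near in 43.7% of cases, 4.91 points fewer than the listed sites (0.183 to 9.54). Close to a DRACH site of the same library, 9.79% of final-G adenosines were listed in the cerebellum (9.05% to 10.6%) and, for the cerebrum, 12.2% (11.6% to 12.9%), and elsewhere 0.740% and 1.27%. The lists give neither expression nor depth, so neither could be set beside these shares.

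Every final-G 5-mer holds a CpG in its DNA, and the surrounding CpG content differed as well. Of the listed sites, 13.8% had 6 or more CpG within 50 nt, against 29.9% of the unlisted neighbours, a difference of -16.2 points (-20.5 to -12.1). In coding exons the listed share with 12 or more CpG was 0.142% (0.0722% to 0.281%) in the cerebellum and 0.435% (0.305% to 0.620%) in the cerebrum. With 2 to 3 CpG it was 1.60% and 2.68%. DRACH adenosines also stood lowest with 12 or more CpG, at 0.903% and 1.955%, against 6.00% and 8.08% with 2 to 3. Soft-masked repeats held 3.99% of the listed sites and 3.59% of the unlisted neighbours, a difference of 0.398 points (-1.72 to 1.91).

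In sharing between the tissues, final-G sites stood between DRACH sites and the other sites outside DRACH. Of the cerebellum final-G sites, 73.2% were also listed in the cerebrum (70.7% to 75.6%), against a background of 60.8% over all cerebellum sites. The share was 81.0% for DRACH sites (80.6% to 81.3%) and 25.8% for the other sites outside DRACH (25.3% to 26.3%). In the longer cerebrum list, 33.5% of final-G sites were also in the cerebellum (31.7% to 35.3%), against 25.6% over all cerebrum sites, 45.3% of DRACH sites (45.0% to 45.7%) and 7.62% of the others (7.46% to 7.79%). Across autosomes the cerebellum value ran from 57.1% to 86.5% and was below that of DRACH on 16 of 19, and the cerebrum value ran from 25.9% to 42.2% and was below DRACH on 19 of 19. It was above the other sites outside DRACH on all 19 in both directions. Introns hold many of those other sites, so the values were also taken in coding exons of genes with a site in both libraries. There the cerebellum list gave 74.6% for final-G sites, 84.3% for DRACH sites and 38.1% for the others, and the cerebrum list 37.2% (35.2% to 39.2%), 52.1% and 14.1% (13.7% to 14.5%), in the same order.

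The 5-mers and flanks differed in sharing. GGACG sites of the cerebellum were found in the cerebrum in 83.0% of cases (411 of 495, 79.5% to 86.1%). The cases shared were 72.2% for AGACG and 71.0% for GAACG. They were 60.4% for TGACG, 55.6% for TAACG and 51.9% for AAACG (54 of 104, 42.4% to 61.3%). In the other direction GGACG stood at 36.8% (34.1% to 39.7%) and AAACG at 21.7% (17.0% to 27.2%). Sites with both A at -4 and T at +4 were shared in 80.5% (75.7% to 84.6%) of the cerebellum and 40.4% (36.5% to 44.4%) of the cerebrum cases, and sites with neither in 59.6% (53.6% to 65.2%) and 22.7% (19.8% to 25.9%).

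Final-G sites far from any DRACH site had low shares in the other library. With a DRACH site at 0 to 20 nt, 79.1% of the cerebellum sites were also in the cerebrum (74.5% to 83.0%), and with the nearest one over 200 nt away 43.7% (36.1% to 51.7%). In the other direction the values were 42.6% (38.8% to 46.4%) and 11.5% (9.16% to 14.4%). Of 25 intronic final-G sites in the cerebellum, 8 were listed in the cerebrum, or 32.0% (17.2% to 51.6%), and 7.77% of the 103 in the cerebrum were listed in the cerebellum (3.99% to 14.6%). Sharing was low in introns for the other sets too, at 39.3% and 13.4% for DRACH sites and 6.45% and 1.84% for the other sites outside DRACH. The CDS and the 3′ UTR hardly differed in the cerebellum list, at 73.8% (70.0% to 77.3%) and 74.8% (70.9% to 78.3%), while in the cerebrum list they were 32.1% (29.6% to 34.7%) and 38.9% (35.98% to 41.9%).

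**Figure D5:**
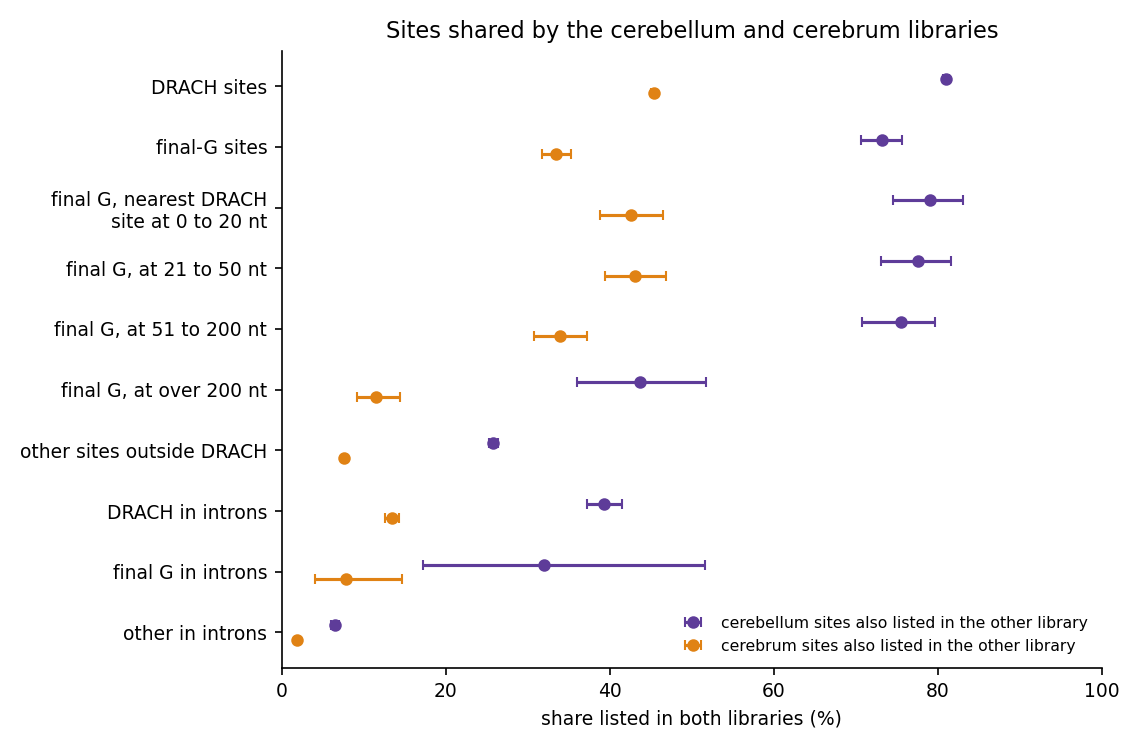
Share of sites of each library that were also listed in the other (percent), for DRACH sites, final-G sites, final-G sites by distance to the nearest DRACH site, the other sites outside DRACH, and all 3 sets in introns, with 95% Wilson intervals as bars. Final-G sites over 200 nt from a DRACH site, at 43.7% and 11.5%, lie below those within 20 nt, at 79.1% and 42.6%.

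Final-G sites were spread thinly over genes. They fell in 1918 of the 11912 coding genes with a site, 1425 of which had 1 final-G site and 28 of which had 5 or more. In 47 of the 1918 genes no DRACH site was listed. The 20 genes with the most held 121 of the 2697 sites in coding exons.

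Apc, Fat4 and Fat1 led with 8 each. Apc, the scaffold of the beta-catenin destruction complex in Wnt signalling, had all 8 in the CDS, 7 of them listed in the cerebellum, 4 in the cerebrum and 3 in both, among 41 final-G adenosines. Fat4 and Fat1, giant atypical cadherins, carried them at 8 of 51 and 8 of 80 final-G adenosines, with 3 and 2 in both libraries. Apc2, the relative of Apc found in neurons, had 7 of 22, all in the CDS. Lrrc4b, a leucine-rich repeat adhesion protein of synapses, had 7 of 15, 4 of them in both libraries, or 46.7% of its final-G adenosines beside 55.3% of its 38 DRACH adenosines.

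With 6 each followed Prkce, Son, Zfp644, Flrt2, Gprin1, Soga1, Bcl11a and Trim67. Prkce, the epsilon isoform of protein kinase C, had 5 of its 6 in both libraries, whereas Bcl11a, a zinc finger transcription factor, and Trim67, a tripartite motif protein, had 0. All 6 of Trim67 were in the cerebrum library. The 6 of Son, which encodes a splicing cofactor of nuclear speckles, were all in the CDS. Of 15 genes with 5 each, Ptprz1, Disp2, Irf2bpl, Stox2, Pcdh10, Pomk and Shank2 entered the 20. Ties were settled by more sites in both libraries, then by symbol, so genes with shared sites came first. In Ptprz1, a receptor tyrosine phosphatase of glial progenitors, 5 of 5 were in both libraries, and 4 of 5 were in Disp2 and in Irf2bpl. Over the 20 genes the listed share of final-G adenosines ran from 10% in Fat1 to 46.7% in Lrrc4b, and it describes genes chosen for their number of such sites.

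Gene lists were described by counts beside those of all coding genes with a site. Of these 11912 genes, 1918 carried a final-G site. Over them, 2.52% of final-G adenosines were listed in either library (2.43% to 2.62%). The number of final-G adenosines per gene was not matched, and counts of genes depend on it. Of 34 neural transcription factors, 20 carried a final-G site, 34 in all at 480 adenosines, or 7.08% (5.11% to 9.74%), led by Pou3f3 with 5, Tcf4 with 3 and Zeb2 with 3. Synaptic adhesion and scaffold genes had them in 16 of 33 genes, 28 at 578 adenosines, or 4.84% (3.37% to 6.91%), among them the postsynaptic scaffold Shank2 with 5 and the synaptic adhesion gene Lrrtm4 with 3. Chromatin regulators had them in 18 of 41 genes, at 3.88% of adenosines (2.81% to 5.35%), led by the histone methyltransferases Setd2 with 4, Kmt2a with 4 and Nsd1 with 3. Axon guidance genes stood at 3.54% (2.25% to 5.53%) in 14 of 35 genes, led by the ephrin receptor Epha5 with 3, Plxna4 with 2 and Sema6a with 2.

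Of 22 writers, readers and erasers of m6A, 6 carried a final-G site, 8 in all, or 2.94% of their final-G adenosines (1.498% to 5.70%). Ythdf2, a cytoplasmic reader that promotes decay of methylated transcripts, held 3 of its 9 final-G adenosines in the CDS, all 3 in both libraries. Cbll1 and Zc3h13, which encode subunits of the methyltransferase complex, had 1 each, also in both libraries. The DRACH share of these lists ran from 10.9% for the writers, readers and erasers to 15.6% for the chromatin regulators, against 7.90% over all coding genes with a site. The final-G share was above 2.52% in all 5 lists, but the intervals of the axon guidance genes and of the writers, readers and erasers included that value. The median number of final-G sites per gene was 1 in the neural transcription factors, 0.5 in the synaptic genes and 0 in the others and over all genes. Expression level, which the site lists do not give, was not matched.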

How the data were processed

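GLORI site lists of 2 libraries, 1 cerebellum and 1 cerebrum, were used. The authors mapped reads to mm10 and to a copy with PWK bases, called sites with GLORI-tools, united both calls and filtered them on methylation rate and read count. The deposited values are genomic positions with a strand, in no other unit. The cerebrum list was deposited under a name with the cerebellum abbreviation beside the word cerebrum, and tissues follow the sample records. Here, 5-mers were read from GRCm38, the assembly named mm10. Regions came from GENCODE M21, a release other than the authors', by the longest covering isoform whose coding sequence is complete and flanked by UTRs. Distances to exon junctions and stop codons are along that transcript. The DRACH 5-mers number 18. Shares have 95% Wilson intervals and differences Newcombe intervals, both tried on simulated independent draws, which do not model adenosines that share a transcript. Ratios have log (Katz) intervals, which were not tried on simulated data. No test between tissues was possible with 1 library each. Members, gene lists and named genes (the 20 coding genes with most sites, and the 3 with most per list, of which some are not reported here) were chosen with earlier results of these data known. Examples with both flanking bases were chosen after values were seen. Sequences on chromosome 18 were not printed. Alternatives were other windows, candidate sets, isoforms and matching distances. Python 3.11.15, numpy 2.4.6, pandas 2.3.3 and matplotlib 3.10.9 were used.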

Additional observations from a re-analysis of the deposited data

Results flagged for a closer look

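Some listed positions have no A in the C57 reference and so lie outside the sets compared above. Of these, 4 of 209 in the cerebellum, 3 of 364 in the cerebrum and 5 of 510 in the union had neighbouring bases that fit a final-G 5-mer, and 2 were in both libraries. The counts of 4 and 5 are given because they are above the 3 that a count of 0 allows, which says nothing of their frequency. They are 1.91% and 0.980% of these positions, and final-G sites were 1.54% of the cerebellum list and 1.37% of the union. The PWK base at these positions was not looked up, and read as A they would raise the 3007 sites by 5.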

How the results depend on the processing

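Of 51 values under another setting, 23 lay inside the interval of the value reported and 28 outside it. Only the 12 that are differences in base frequency could change sign, and 0 of them did. Near another listed site (50 nt), final-G shares of 7.76% (cerebellum) and 7.78% (cerebrum) were found, and for GGACG 19.3% and 19.8%. In genes with a site in both libraries, the cerebrum share was 2.81%, and 37.2% of its final-G sites were in the cerebellum. Counting only sites of both libraries gave 1.02% and 0.801% in all regions, 0.290% and 0.226% in the 5′ UTR, 0.826% and 0.638% in the CDS and 1.77% and 1.44% in the 3′ UTR. Over autosomes, the share of GGACG was between 1.28% and 4.89% (cerebellum) or 2.27% and 6.57% (cerebrum), and sharing between 57.1% and 86.5% or 25.9% and 42.2%. T at +4 differed by 39.7 points with a window of 25 nt, and for sites of both libraries T at +4, A at -4 and G at -2 differed by 53.1, 29.8 and 38.8 points. A DRACH site within 10 and 20 nt was found at 10.2% and 24.0% of final-G sites. Read depth is unknown for every share given. No paired analysis was possible because each tissue has 1 library.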

Other observations

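Final-G sites outside coding models included 4 in Lrp8, all in both libraries, and 4 in Celsr3, 1 of them in both. These genes code for proteins, and the transcripts over their sites lacked a complete coding model. Malat1, a long noncoding RNA of the nucleus, carried 2, both shared, and the host transcript Mir124-2hg carried 2, 1 of them shared. Chromosome X held 58 final-G sites, the mitochondrial chromosome 1 and the autosomes from 62 to 218. Another final-G site lay within 50 nt of 98 of the 3007. These genes were named after their counts were seen.

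Final-G sites and DRACH sites had a median of 48.5% and 45.5% G and C within 50 nt, the unlisted final-G neighbours 51.5% and the other sites outside DRACH 39.6%. The median distance to the nearest DRACH site was 52 nt for final-G sites, 61 nt for DRACH sites and 4667 nt for the other sites outside DRACH.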
